A study of Mus musculus with 7 samples.

Results

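The 9 genes described here encode enzymes that make NADPH or carry the pentose phosphate pathway: G6pdx, H6pd, Pgls, Pgd, Tkt, Taldo1, Me1, Idh1 and Nnt. They were taken by symbol from the 21487 genes of the count table, and all 9 passed the filter on low counts that left 13409 genes to test. RNA was measured in gastrocnemius, a calf muscle, of mice with immobilization-induced muscle atrophy. The 4 knockout libraries came from mice that lack DJ-1 in skeletal muscle (MPARK7KO), and the 3 control libraries from flox mice, which the labels also call WT. Every library was from an immobilized muscle, and no label gives the promoter that drives the deletion, the age or the strain. The comparison addressed how loss of DJ-1 bears on these enzymes in disused muscle.

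NADPH is the electron donor that cells use to keep glutathione and thioredoxin reduced and to build lipids. The oxidative branch of the pentose phosphate pathway makes it from glucose 6-phosphate in the cytosol, and the non-oxidative branch exchanges the resulting pentoses with glycolysis. Malic enzyme and isocitrate dehydrogenase make NADPH from other carbon sources, and Nnt makes it in mitochondria. DJ-1, the product of Park7, is known for protecting cells against oxidative stress.

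Library totals ran from 24458343 to 26389010 counts. Park7 stood at 240, 230 and 266 counts-per-million (CPM) in controls 1 to 3 and at 35.9, 41.5, 34.7 and 37.2 CPM in knockouts 1 to 4, as the labels give. Of 8 muscle genes, 1 rose and 2 fell: the fast myosin Myh4 rose (log2 fold change 1.11, adjusted p = 0.0380), and the fast myosin Myh1 (-1.45, adjusted p = 0.0292) and the myoglobin gene Mb (-2.17, adjusted p = 0.0101) fell. The share of counts from mRNAs of mitochondrial DNA was 17.0% to 20.0% in controls and 8.72% to 11.6% in knockouts. Among markers of other cells, 3 of 10 tested macrophage genes, 3 of 9 adipocyte genes, 4 of 8 fibroblast genes, 3 of 5 erythroid genes and 2 of 6 Schwann cell genes fell in the edgeR fit. Of all tested genes, that fit called 8.23% lower and 6.67% higher. Limma-voom called none of the erythroid and Schwann cell genes, and DESeq2 called 2 and 3 of them. The summed levels ran from 56.5 to 92.4 CPM in controls and 38.9 to 62.3 CPM in knockouts for macrophage genes, and from 177 to 224 and 105 to 161 CPM for adipocyte genes. They ran from 315 to 612 and 228 to 347 CPM for fibroblast genes, from 224 to 809 and 101 to 235 CPM for erythroid genes, and from 65.6 to 261 and 41.7 to 58.7 CPM for Schwann cell genes. Endothelial genes summed to 227 to 276 and 191 to 218 CPM, satellite cell genes to 35.9 to 41.9 and 34.1 to 45.8 CPM, and neutrophil genes to 0.422 to 1.24 and 0.472 to 1.75 CPM, with none of them called by edgeR, DESeq2 or limma-voom (2 endothelial, 1 satellite cell and 0 neutrophil genes had an unadjusted edgeR p under 0.05). No marker in the table was at 0 in every library, and the part of other cells in the results below was not tested. In bulk muscle, fewer cells of a type and less RNA per cell cannot be told apart.

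Of the 9 enzymes, 4 rose in the knockout (Tkt, H6pd, Pgd and Me1) and 2 fell (Nnt and Idh1), by edgeR's quasi-likelihood test at an adjusted p under 0.05. G6pdx, Pgls and Taldo1 did not pass the test. Among all tested genes 6.67% were called higher, 8.23% lower and 14.9% in either direction. Knockout and control libraries did not overlap for the 6 called enzymes, against 28.8% of all tested genes. Tkt, Idh1 and Nnt also passed the 1.5-fold limit used by the authors, which with the same adjusted p holds for 7.52% of tested genes. The median log2 fold change of the 9 was -0.06, and that of all tested genes was 0.01.

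**Figure D1:**
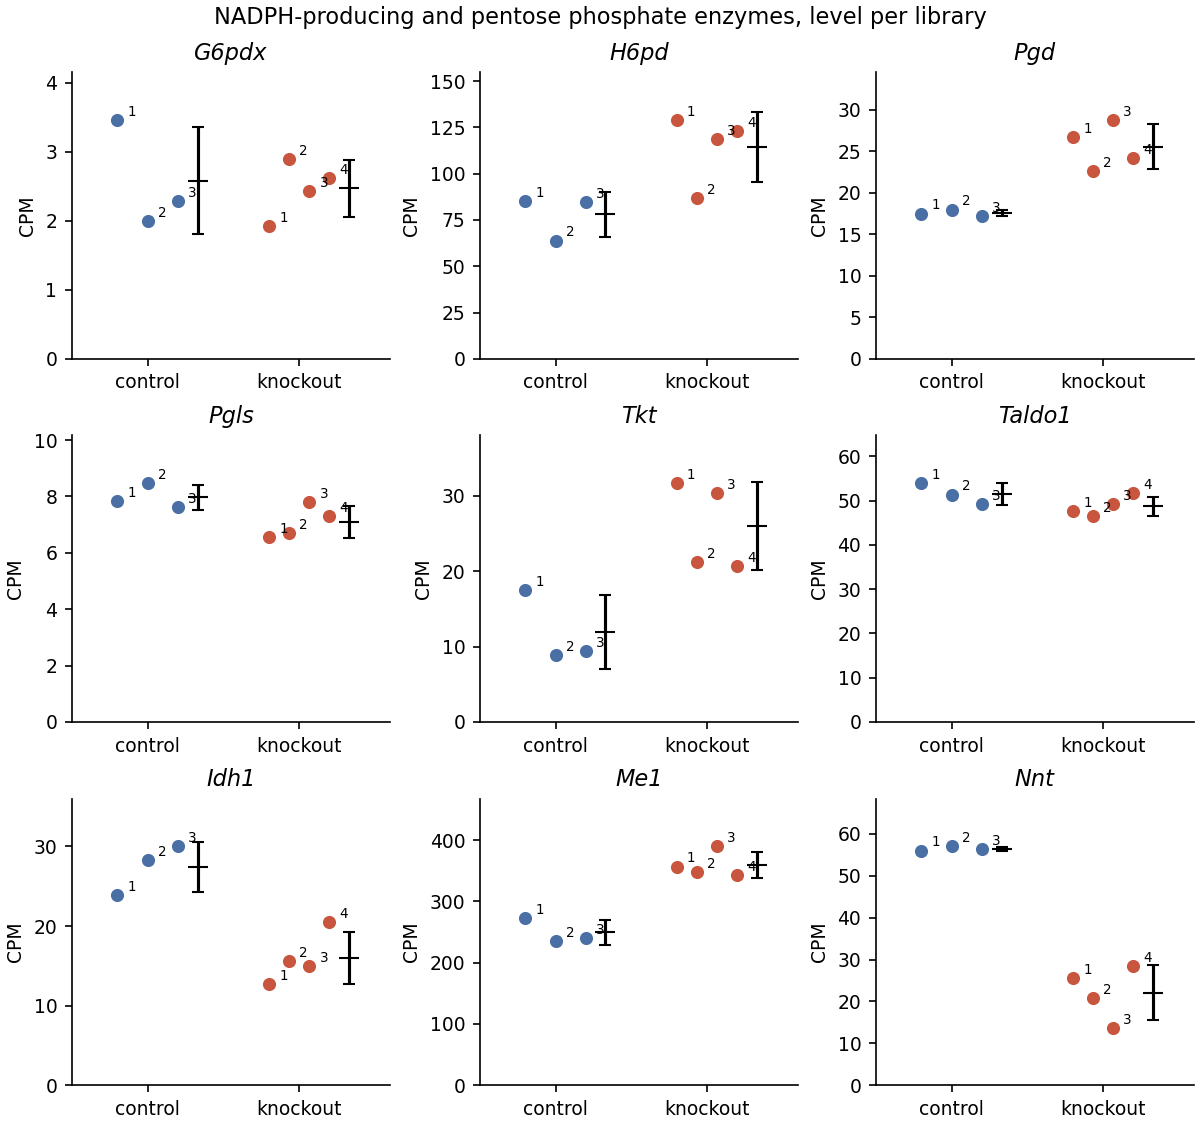
Level of each enzyme in CPM (linear axes from 0) in the 3 control and 4 knockout libraries; points are libraries with their numbers, and bars are the mean and SD. The libraries of the 2 groups do not overlap for H6pd, Pgd, Tkt, Idh1, Me1 and Nnt, and overlap for G6pdx, Pgls and Taldo1.

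To compare levels between genes, CPM was divided by transcript length. In controls Me1 stood highest, at 75.9 ± 6.20 CPM per kb (SD, n = 3), followed by Taldo1 at 41.9 ± 1.96, H6pd at 17.1 ± 2.68 and Nnt at 16.3 ± 0.147 CPM per kb. Idh1 followed at 11.9 ± 1.37, Pgls at 8.93 ± 0.499, Pgd at 7.92 ± 0.171, Tkt at 3.70 ± 1.51 and G6pdx at 0.972 ± 0.293 CPM per kb. H6pd and Nnt differed by less than the SD of H6pd, and the other neighbours in this order lay further apart than their summed SDs. In knockouts the order was Me1 at 109 ± 6.40 CPM per kb (SD, n = 4), Taldo1 at 39.6 ± 1.81, H6pd at 25.0 ± 4.14 and Pgd at 11.5 ± 1.24 CPM per kb. Tkt at 8.05 ± 1.80, Pgls at 7.94 ± 0.641, Idh1 at 6.94 ± 1.41 and Nnt at 6.39 ± 1.88 CPM per kb came next, each within the larger SD of its neighbour, and G6pdx was last at 0.930 ± 0.154 CPM per kb. Tkt and Pgd thus moved up the order, and Nnt and Idh1 moved down.

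G6pdx (chrX:74409483-74429194) encodes glucose-6-phosphate dehydrogenase, which commits glucose 6-phosphate to the oxidative branch. It was measured at 3.46, 1.99 and 2.28 CPM in controls 1 to 3 and at 1.92, 2.89, 2.43 and 2.62 CPM in knockouts 1 to 4. Control 1 was the highest library and knockout 1 the lowest, and the groups overlapped. The log2 fold change was -0.06 (SE 0.230, adjusted p = 0.879). It became 0.20 without control 1 and 0.04 without knockout 1, uncalled in both, and no library held more than 86 counts of the gene.

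H6pd (chr4:149979475-150009023) encodes hexose-6-phosphate dehydrogenase, the enzyme that makes NADPH from glucose 6-phosphate inside the endoplasmic reticulum. It stood at 85.4, 63.9 and 84.7 CPM in controls and at 129, 86.6, 119 and 123 CPM in knockouts. Knockout 2 lay just above controls 1 and 3, and the other knockouts lay well above them. The log2 fold change was 0.55 (SE 0.154, adjusted p = 0.0433), 1.47-fold. This call is close to the threshold: it held in 1 of the 7 fits that leave out a library, that without knockout 2 (adjusted p = 0.0113), and in the others the adjusted p rose to at most 0.121. It was also lost with upper quartile scaling (adjusted p = 0.0633).

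Pgls (chr8:71592176-71601092) encodes 6-phosphogluconolactonase, the enzyme between the 2 dehydrogenases of the branch. Its level was 7.97 ± 0.446 CPM in controls (SD, n = 3) and 7.09 ± 0.573 CPM in knockouts (SD, n = 4), with a log2 fold change of -0.17 (SE 0.112, edgeR adjusted p = 0.331). Pgd (chr4:149149991-149166771) encodes 6-phosphogluconate dehydrogenase, which makes the further NADPH of the branch and releases ribulose 5-phosphate. It stood at 17.5, 18.0 and 17.2 CPM in controls and at 26.7, 22.6, 28.8 and 24.1 CPM in knockouts. The controls were close together, and every knockout lay above them. Pgd rose 1.45-fold (log2 fold change 0.54 ± 0.101 SE, adjusted p = 0.0118), and it was called in all 7 fits that leave out a library, with an adjusted p of at most 0.04996.

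Tkt (chr14:30548359-30574720) encodes transketolase, which moves carbon between pentoses and the glycolytic intermediates. It rose from 17.5, 8.85 and 9.43 CPM in controls to 31.6, 21.2, 30.3 and 20.6 CPM in knockouts. The groups did not overlap, but control 1 stood near the lower knockouts. The log2 fold change was 1.12 (SE 0.262, adjusted p = 0.0250), 2.18-fold, the largest rise among the 9 enzymes. It was called in 3 of the 7 fits that leave out a library. It was lost without control 2 (adjusted p = 0.0757), control 3 (0.0865), knockout 1 (0.0508) or knockout 3 (0.0639), and without control 1 the log2 fold change was 1.50. Control 1 was also the highest control for G6pdx and for Fasn, the fatty acid synthase, at 53.7 CPM against 15.6 and 19.2 CPM in controls 2 and 3, and it held the highest summed adipocyte and Schwann cell markers of all libraries. The part of those markers in the level of Tkt was not tested. Taldo1 (chr7:141392199-141402968) encodes transaldolase, the other transfer enzyme of the non-oxidative branch. It stood at 51.4 ± 2.41 CPM in controls (SD, n = 3) and 48.7 ± 2.22 CPM in knockouts (SD, n = 4), with a log2 fold change of -0.08 (SE 0.0736, edgeR adjusted p = 0.491).

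Me1 (chr9:86581371-86695953) encodes the cytosolic malic enzyme, which turns malate into pyruvate and makes NADPH. It stood at 273, 236 and 240 CPM in controls and at 357, 349, 390 and 343 CPM in knockouts. Both groups were tight and well apart. Me1 rose 1.44-fold (log2 fold change 0.53 ± 0.0850 SE, adjusted p = 0.00750), and the call held when any single library was left out (adjusted p of at most 0.0351).

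Idh1 (chr1:65158616-65186500) encodes the cytosolic and peroxisomal isocitrate dehydrogenase that makes NADPH. It fell from 23.9, 28.3 and 30.0 CPM in controls to 12.7, 15.6, 15.0 and 20.5 CPM in knockouts. Knockout 4 was the highest knockout and still lay below every control. The log2 fold change was -0.78 (SE 0.155, adjusted p = 0.0144), 0.582 times the control level, and the call was lost in 1 of 7 fits, that without control 3 (adjusted p = 0.0586).

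Nnt (chr13:119335527-119409257 in RefSeq) encodes nicotinamide nucleotide transhydrogenase of the inner mitochondrial membrane, which uses the proton gradient to make NADPH from NADH. It fell from 56.0, 57.0 and 56.4 CPM in controls to 25.6, 20.8, 13.6 and 28.5 CPM in knockouts. The controls were nearly equal, and every knockout lay far below them, knockout 3 lowest. The log2 fold change was -1.35 (SE 0.205, adjusted p = 0.00653), 0.392 times the control level, the largest fall and the smallest p among the 9 enzymes, and the call held when any single library was left out. As background, the mm10 reference comes from C57BL/6J mice, whose Nnt gene lacks several exons, so reads from those exons could not be counted on it. The strain of these mice is not given in the sources used here, and whether both groups carry the same Nnt allele was not tested.

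Levels of Mb and Myh7, chosen after their values had been seen, are given beside those of Nnt. Mb, the oxygen store myoglobin, stood at 3747, 3500 and 3335 CPM in controls and at 875, 996, 253 and 1002 CPM in knockouts. Myh7, the slow fibre myosin, stood at 646, 762 and 762 CPM in controls and at 238, 9.29, 5.78 and 288 CPM in knockouts, and it was not called (adjusted p = 0.165). Knockout 3 was the lowest library for Nnt, Mb, Myh7 and the share of mitochondrial DNA mRNAs, while knockout 2 was near the lowest for Myh7 and near the highest knockout for Mb. The part of fibre type in the fall of Nnt was not tested. Over the 7 libraries the genes whose log2 CPM was most like that of Nnt were Fads6 (Pearson r = 0.993), Fndc5 (0.992) and Adck3 (0.990). Adck3 is required for coenzyme Q synthesis. These values describe libraries that differ by group, and they carry no test.

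**Figure D2:**
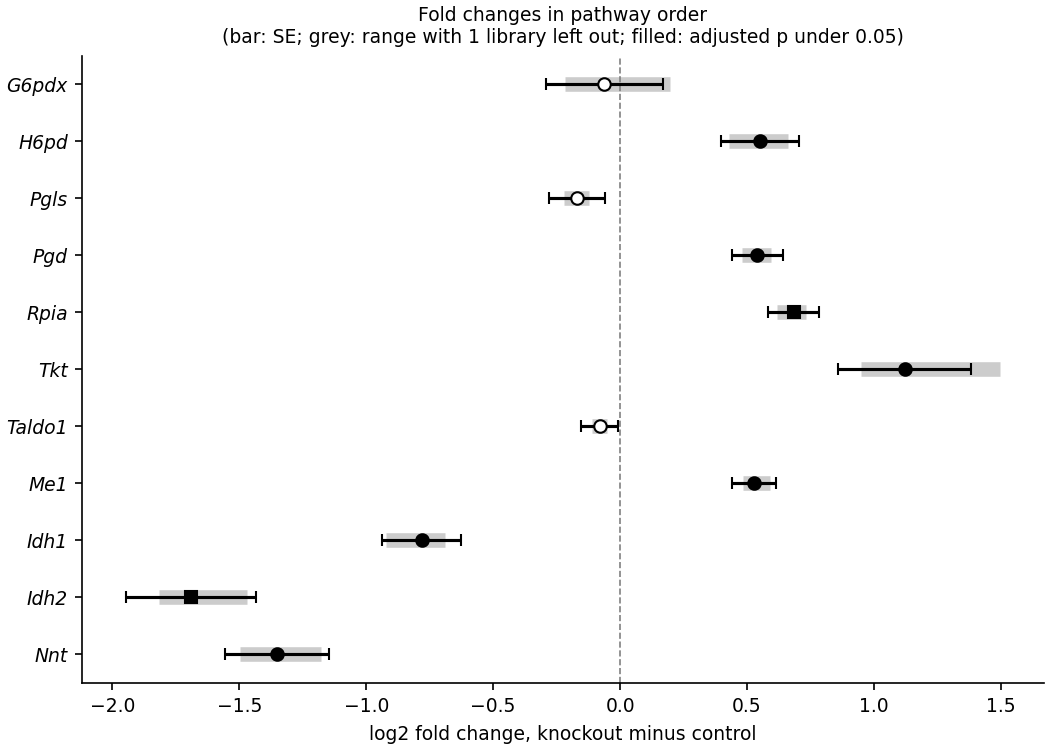
Log2 fold change, knockout minus control, of the 9 enzymes (circles) and of Rpia and Idh2 (squares); bars are the SE, grey bands the range over the 7 fits that leave out a library, and filled symbols have an adjusted p under 0.05. Tkt has the widest range, 0.95 to 1.50, and the range of G6pdx spans 0.

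Because some of the enzymes rose and others fell, the starts of 2 genes that rose and of 1 that fell are shown, each in the window that holds a match to the motif searched. Tkt (chr14:30548881-30549135, plus strand), Me1 (chr9:86695910-86696164, minus strand) and Idh1 (chr1:65186475-65186729, minus strand) are given as RefSeq places them on GRCm38.p6. Each runs from 250 bases before a RefSeq start of the gene to 5 bases from that start on. The Tkt stretch lies inside the GENCODE span given above for Tkt, so its start is not the first base of that span. Capitals mark the match to TGANNNNGC, the core of the antioxidant response element that NRF2 binds, searched on both strands.
Tkt: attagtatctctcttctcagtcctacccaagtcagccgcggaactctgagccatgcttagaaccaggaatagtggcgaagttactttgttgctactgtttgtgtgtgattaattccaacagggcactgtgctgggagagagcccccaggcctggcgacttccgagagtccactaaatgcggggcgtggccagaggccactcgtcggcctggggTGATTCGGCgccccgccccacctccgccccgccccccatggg
Me1: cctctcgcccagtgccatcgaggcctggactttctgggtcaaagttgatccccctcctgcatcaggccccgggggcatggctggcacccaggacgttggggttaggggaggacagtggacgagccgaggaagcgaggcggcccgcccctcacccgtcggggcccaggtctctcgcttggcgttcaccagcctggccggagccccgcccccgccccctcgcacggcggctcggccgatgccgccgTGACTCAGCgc
Idh1: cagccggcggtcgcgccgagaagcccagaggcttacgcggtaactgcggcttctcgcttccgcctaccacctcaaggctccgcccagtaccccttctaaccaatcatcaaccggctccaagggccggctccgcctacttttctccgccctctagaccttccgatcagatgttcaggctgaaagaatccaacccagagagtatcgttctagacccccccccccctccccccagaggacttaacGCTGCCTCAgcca
The match begins 37 bases before the start in Tkt, 6 bases before it in Me1 and 8 bases before it in Idh1, where it is on the opposite strand. Windows of 300 bases were held for 8 of the 9 enzymes, Nnt being the one with none, as 11 windows in all. TGANNNNGC was found in 6 of the 11 windows, those of G6pdx, Idh1, Me1, Pgd, Taldo1 and Tkt, against 41.3% of the 32851 windows of all genes. The further windows of Idh1, Me1 and Pgd and those of H6pd and Pgls held no match. It was thus present in enzymes that rose, in an enzyme that fell and in enzymes that did not pass the test. GGGCGG, the GC box, was in 8 of the 11 windows against 35.7% of all windows, and CACGTG, an E-box, was in none against 7.15%. A match says only that these letters are present.

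Some steps have isoenzymes or compete for a substrate, and the log2 ratio of 2 genes' CPM was compared between groups within each library. None of the 4 ratios passed an adjusted p of 0.05 in the 2-sided exact permutation test, whose smallest p in this design, 0.0571, cannot reach it. The ratio of Idh1 to Idh2, its mitochondrial counterpart, was -3.36, -3.18 and -2.95 in controls and -2.58, -2.60, -1.36 and -2.19 in knockouts, a difference of 0.98 (exact permutation p = 0.0571, 0.0762 adjusted over the 4 ratios). All knockouts lay above all controls, since Idh2 fell further than Idh1, from 244 ± 12.1 CPM in controls (SD, n = 3) to 75.7 ± 26.2 CPM in knockouts (SD, n = 4).

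The ratio of G6pdx to Gpi1, the glycolytic isomerase that uses the same glucose 6-phosphate, was -7.88, -8.71 and -8.59 in controls and -9.26, -9.00, -9.34 and -8.92 in knockouts. The knockouts lay below every control, by 0.74 on average (exact permutation p = 0.0571, adjusted 0.0762). Gpi1 itself rose (log2 fold change 0.71 ± 0.117 SE, edgeR adjusted p = 0.00812). The ratio of Me1 to Me2, a mitochondrial malic enzyme, was 5.67, 5.67 and 5.96 in controls and 5.97, 6.16, 6.21 and 6.12 in knockouts. The difference was 0.35 (exact permutation p = 0.0571, adjusted 0.0762), and control 3 and knockout 1 nearly met. Me3, another mitochondrial malic enzyme, stood above Me2 in controls (13.3 against 1.75 CPM per kb) and entered no ratio. The log2 fold change of Me3 was -0.35 (edgeR adjusted p = 0.0525), and that of Me2 was 0.17 (edgeR adjusted p = 0.457). The ratio of H6pd to G6pdx, the enzymes of the same step in the endoplasmic reticulum and the cytosol, was 4.95 ± 0.298 in controls (SD, n = 3) and 5.53 ± 0.479 in knockouts (SD, n = 4) with overlap (exact permutation p = 0.171, adjusted 0.171).

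**Figure D3:**
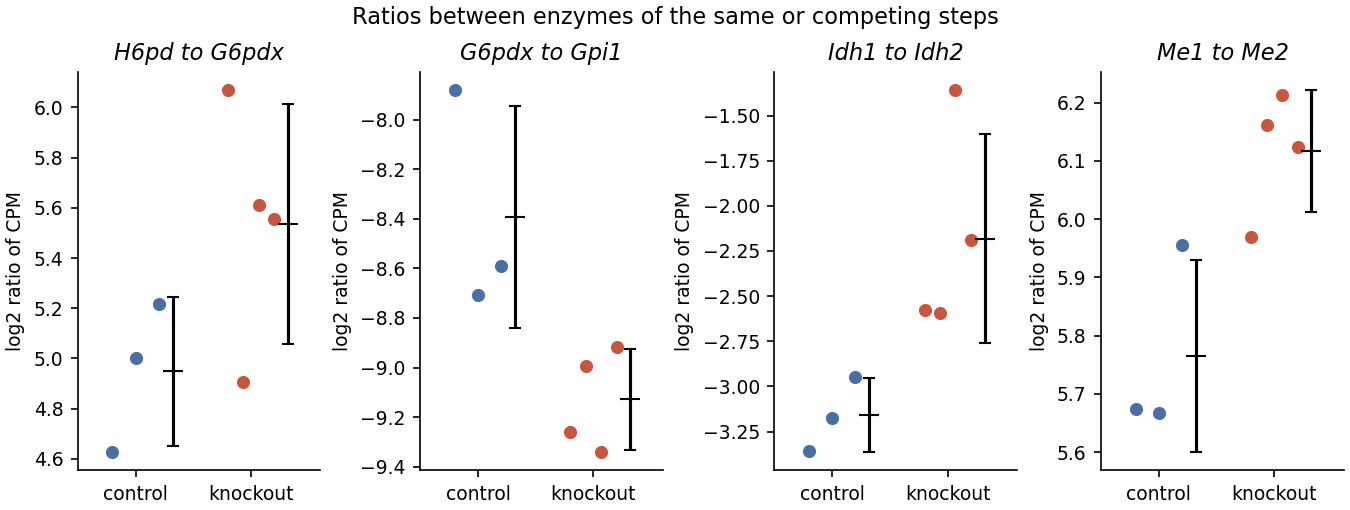
Log2 ratio of CPM between pairs of enzymes in each library (points), with the mean and SD of each group; the vertical axes do not start at 0. The groups do not overlap for G6pdx to Gpi1, Idh1 to Idh2 and Me1 to Me2, and overlap for H6pd to G6pdx.

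Among the other genes of pentose and ribose metabolism, 2 of 12 tested rose, Rpia and Pgm2, and 1 fell, Prps2. That is 25% called against 14.9% of all tested genes, with a median log2 fold change of 0.22. Rpia, the ribose 5-phosphate isomerase between Pgd and Tkt, rose from 15.7, 15.6 and 17.1 CPM to 25.4, 23.3, 29.5 and 25.7 CPM (log2 fold change 0.68, SE 0.101, adjusted p = 0.00641). Pgm2, a sugar phosphomutase, rose by 0.51 (SE 0.107, adjusted p = 0.0172), a call lost without control 2 (adjusted p = 0.0548) or control 3 (0.0596). In controls it stood at 978 CPM on average, against 16.1 CPM for Rpia. The annotation behind the symbols is not given, and whether this Pgm2 is the pentose or the glucose phosphomutase was not tested. Prps2, which makes phosphoribosyl pyrophosphate, fell (log2 fold change -0.83 ± 0.223 SE, adjusted p = 0.0388) from 1.85 ± 0.249 CPM in controls (SD, n = 3) to 1.04 ± 0.228 CPM in knockouts (SD, n = 4), and this call was lost in 6 of the 7 fits that leave out a library.

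Of the 12 other sources of NADPH and NAD kinases, none rose and 2 fell, with a median of -0.11. That is 16.7% called, near the 14.9% of all tested genes. Idh2 fell (log2 fold change -1.69 ± 0.257 SE, adjusted p = 0.00654), with knockout 3 lowest at 38.6 CPM. Glud1, glutamate dehydrogenase, fell less (log2 fold change -0.31 ± 0.0814 SE, adjusted p = 0.0367), a call that held in 2 of the 7 fits that leave out a library. The NAD-linked relatives all fell, 5 of 5, with a median of -0.53. They were the malate dehydrogenases Mdh1 (log2 fold change -1.13, adjusted p = 0.00130) and Mdh2 (-0.44, adjusted p = 0.00842), and the subunits Idh3a (-0.53, adjusted p = 0.00429), Idh3b (-0.53, adjusted p = 0.00592) and Idh3g (-0.46, adjusted p = 0.00965) of the isocitrate dehydrogenase of the citric acid cycle. Mdh1, the cytosolic enzyme that shares malate with Me1, was at 597 ± 57.2 CPM in controls (SD, n = 3) and at 274 ± 16.7 CPM in knockouts (SD, n = 4).

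Calls were few in the lists built around enzymes that spend NADPH, against 14.9% of all tested genes. None of 13 antioxidant reductases was called by edgeR as fitted here or by limma-voom. Their median was 0.12, and 5 had an unadjusted edgeR p under 0.05. Knockout and control libraries did not overlap for 5 of the 13, against 28.8% of all tested genes. The summed level of the reductases ran from 458 to 472 CPM in controls and from 512 to 545 CPM in knockouts. Nearest the threshold were Akr1a1, an aldehyde reductase (0.22, adjusted p = 0.0501), and Txnrd1, the cytosolic thioredoxin reductase (0.41, adjusted p = 0.0671), both of which DESeq2 called (adjusted p = 0.0186 and 0.0318). EdgeR called Akr1a1 on unrounded counts (adjusted p = 0.0498) and Txnrd1 without knockout 1 (adjusted p = 0.0196). In lipid and sterol synthesis 1 of 14 genes rose (7.14%), and the median was -0.13. This list also holds genes whose enzymes do not themselves use NADPH, and the 1 called, Acaca, is among them. Fasn, the fatty acid synthase, which does use it, was not called (-0.04, edgeR adjusted p = 0.951). It stood at 53.7, 15.6 and 19.2 CPM in controls and at 26.3, 19.8, 33.6 and 34.7 CPM in knockouts. Control 1 thus lay above every knockout, and controls 2 and 3 lay below them all. The summed level of the list was 840, 577 and 616 CPM in controls 1 to 3 and 649 to 719 CPM in knockouts. The part of control 1 in the few calls and the median of this list was not tested. Acaca, the acetyl-CoA carboxylase of fatty acid synthesis, rose from 30.2, 19.1 and 18.5 CPM to 61.2, 34.7, 55.0 and 55.1 CPM (log2 fold change 1.19, SE 0.227, adjusted p = 0.0128). That call was lost without control 3 (adjusted p = 0.0509), and DESeq2 called 3 of the 14. Of the NADPH oxidase genes 5 of 9 could be tested and none was called by edgeR, DESeq2 or limma-voom (median -0.34, 2 at an unadjusted p under 0.05), with Cybb at -0.87 (adjusted p = 0.0588) and Nox4 at -0.77 (adjusted p = 0.108).

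Of 14 tested regulators and targets of NRF2, the factor known for inducing several NADPH-making enzymes, 3 rose and 1 fell, with a median of 0.31. That is 28.6% called against 14.9% of all tested genes. Txn1, thioredoxin, rose by 0.47 in log2 (adjusted p = 0.0166), Mafg, a small partner of NRF2, by 0.63 (adjusted p = 0.0317) and Keap1, its inhibitor, by 0.38 (adjusted p = 0.0342), while Gsta4, a glutathione transferase, fell (log2 fold change -1.11, adjusted p = 0.00842). The Keap1 call held in 1 of the 7 fits that leave out a library, the Mafg call in 3 and the Txn1 call in 5. Of 13 genes of glucose 6-phosphate supply and glycolysis, Gpi1 was the 1 called (7.69%), with a median of 0.30. DESeq2 called 6 of them and limma-voom 3. Of the 13, 8 had an unadjusted edgeR p under 0.05. Knockout and control libraries did not overlap for 6 of the 13, against 28.8% of all tested genes. The summed level of this list ran from 26443 to 28031 CPM in controls and from 31378 to 37926 CPM in knockouts.

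**Figure D4:**
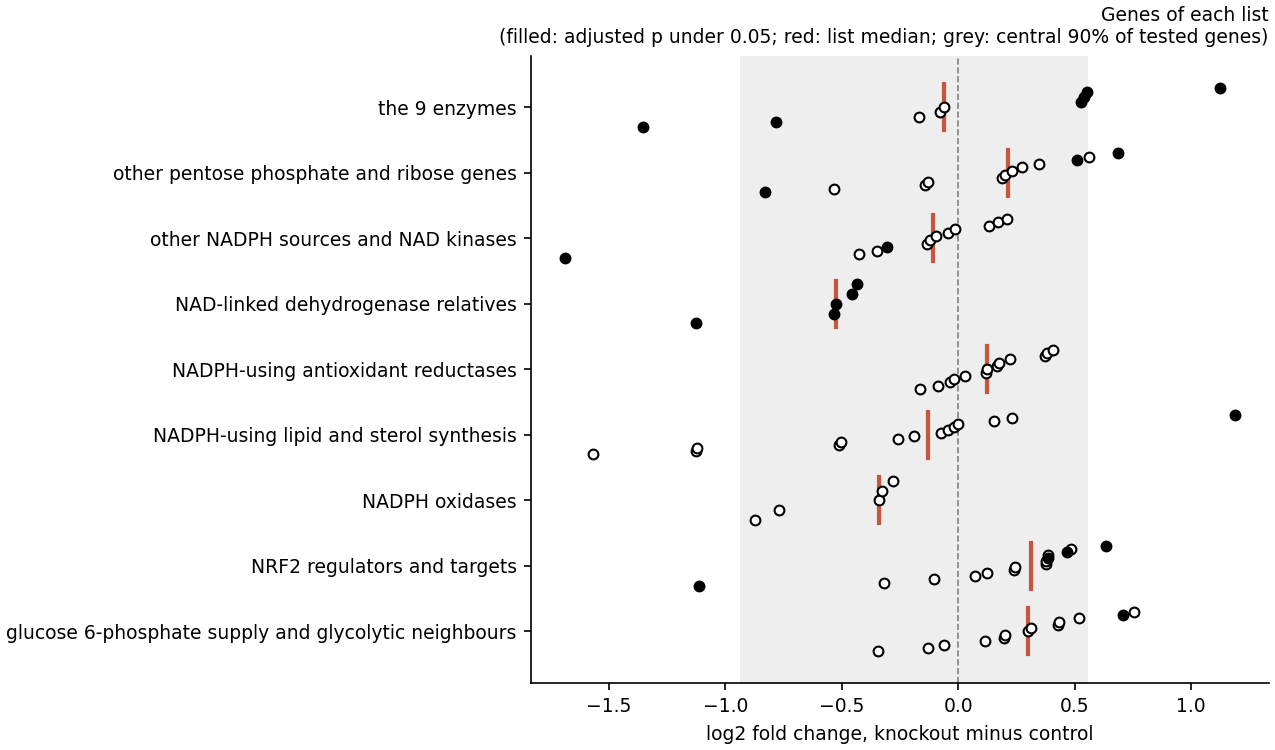
Log2 fold change, knockout minus control, of each tested gene in the 9 enzymes and 8 related lists; filled points have an adjusted p under 0.05, red lines are list medians and the grey band holds the central 90% of all tested genes (-0.93 to 0.55). All 5 NAD-linked dehydrogenase genes lie below 0, and the 9 enzymes lie on both sides.

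H6pd and Pgd lie on chromosome 4 near the targeted gene, Park7 (chr4:150897133-150914437), at 0.888 and 1.73 Mb from it. The 38 other tested genes within 2 Mb of Park7, these enzymes included, held 4 that rose (Casz1, Pgd, Ctnnbip1 and H6pd) and 4 that fell (Clstn1, Tmem201, Thap3 and Acot7), which is 21.1% called against 14.9% of all tested genes, with a median of 0.13. Without H6pd and Pgd, 6 of 36 were called (2 higher and 4 lower, 16.7%). The Casz1 and Tmem201 calls each held in 1 of the 7 fits that leave out a library, those of Ctnnbip1 in 5 and Thap3 in 6, and those of Clstn1 and Acot7 in all 7. The nearest tested genes, Camta1 and Errfi1, were not called. Camta1 just missed the threshold (log2 fold change -0.45, adjusted p = 0.0503) with groups that did not overlap, and Errfi1 stood at 0.18 (adjusted p = 0.204).

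**Figure D5:**
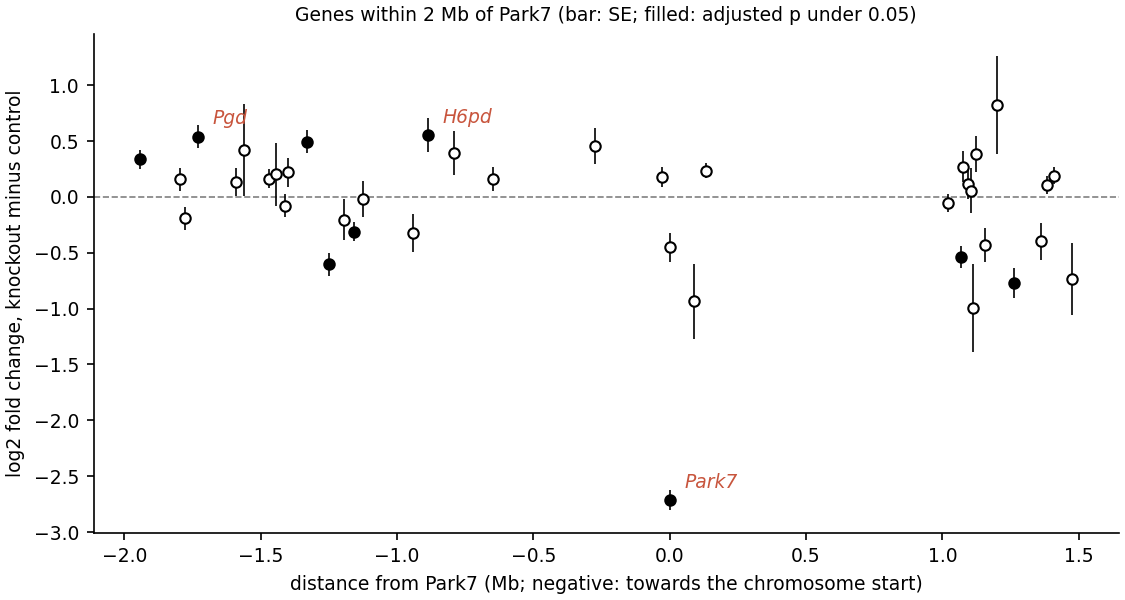
Log2 fold change, knockout minus control, of Park7 and the tested genes within 2 Mb of it against their distance in Mb; bars are the SE and filled points have an adjusted p under 0.05. H6pd and Pgd lie among genes that rose, fell or were not called.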

How the data were processed

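RNA of 7 immobilized gastrocnemius samples was sequenced, 3 from floxed controls and 4 from muscle-specific DJ-1 knockouts, grouped by the genotype in the labels. The deposited table holds RSEM expected counts per gene symbol. Per the labels and the submitters' processing notes, STAR 2.7.10a served the authors for mapping 150 bp paired reads on mm10, RSEM 1.2.28 for the counts and DESeq2 (they give version 1.3.40) for testing. Annotation and strand setting: not given in the sources used here. Of all values 7.59% were not whole, none of them in the 9 enzymes, and counts were rounded. Library totals bound the precision of low genes, and the labels do not say whether libraries are separate animals, so p-values measure the spread between samples.

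Genes were filtered with filterByExpr, scaled by TMM and tested by edgeR's quasi-likelihood F test (edgeR 4.0.16, R 4.3.3), with Benjamini-Hochberg adjustment over all 13409 tested genes. The threshold for a call was an adjusted p of 0.05. Levels are counts-per-million, CPM, with TMM library sizes, and the SE of a log2 fold change is its size divided by the root of F. The older form of the fit was run first. The newer form became the main one after its results had been seen, to match an earlier processing of these data, and the older form is kept as an alternative.

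Each of 4 log2 ratios was compared by a 2-sided exact permutation test that doubles the smaller tail, adjusted over the 4. Another way of counting this p was tried after the values had been seen, and it is given with the other alternatives. In simulated counts, 67 genes were changed 1.5-fold, 67 genes 2-fold and 66 genes 4-fold, far fewer than the 1998 genes called in the data. On the 13244 genes tested there, the knockout minus control test recovered 32.8% of 1.5-fold, 73.1% of 2-fold and 98.5% of 4-fold changes. Of its calls, 3.55% were unchanged genes. The 9 enzymes and all gene lists were chosen with earlier results of these data known. The genes named were the 9 enzymes, Park7, up to 4 called genes of each pathway list with the smallest p (or 2 genes where none was called), the 3 genes most like the enzyme with the smallest p, and the called genes within 2 Mb of Park7. Fasn, Me2, Me3, Idh3g, Mb, Myh7, the other marker genes and the library measures were named after their values had been seen.

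Positions came from GENCODE M21 on GRCm38, except for Nnt, whose symbol has 2 genes there and whose position came from RefSeq on GRCm38.p6. Promoters came from RefSeq on GRCm38.p6. Levels per kb divide CPM by the length of the longest principal transcript. The alternatives were RLE and upper quartile scaling, mitochondrial mRNAs left out, no filter on low counts, a minimum mean count of 10, DESeq2 1.42.0, limma-voom (limma 3.58.1), a robust prior, no rounding, a replicate block, and each library left out.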

Additional observations from a re-analysis of the deposited data

How the results depend on the processing

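Across the 11 alternatives other than leaving out 1 library, the 4 rises and 2 falls of the enzymes were called in each, except that H6pd was lost under upper quartile scaling. With 1 library left out, 2 to 4 enzymes were called higher and 1 to 2 lower, and G6pdx ran from -0.22 to 0.20 on the log2 scale, turning to 0.1977 without control 1 and 0.03898 without knockout 1. Over all genes, 793 to 2057 were then called, 258 to 966 higher and 528 to 1091 lower. The 4 log2 ratios ran from 0.41 to 0.80 for H6pd to G6pdx, -0.89 to -0.48 for G6pdx to Gpi1, 0.70 to 1.12 for Idh1 to Idh2 and 0.30 to 0.45 for Me1 to Me2.

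Another way of counting the 2-sided permutation p, the share of splits with as large an absolute difference, was tried after the values had been seen. It leaves the differences at -0.7355 for G6pdx to Gpi1, 0.9779 for Idh1 to Idh2 and 0.3514 for Me1 to Me2, and puts their adjusted p at 0.0381 in place of 0.0762. Whether these 3 ratios pass 0.05 thus depends on how the tails are counted, and the doubled tail, computed first, is the one reported. The older form of the edgeR fit, run before the one reported, called 1944 genes against 1998 and the same 6 enzymes.

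With the replicate number as a block, 1273 genes were called (577 higher and 696 lower), and all 6 enzymes were still called. No control shares the number of knockout 4, so under the block that library adds nothing to the comparison of the groups. The calls of Prps2 (adjusted p = 0.0844), Casz1 (0.0959) and Tmem201 (0.0701) were lost under the block. Without the filter on low counts those 3 (0.0512, 0.0526 and 0.0744) and Glud1 (0.0645) were lost, and Casz1 was also lost with upper quartile scaling (0.0502). Same-numbered libraries deviated together with correlations of 0.0945, 0.134 and 0.0854, not all over 0.1, and each control correlated best with its own number, a hint from the data and not from the design. Upper quartile scaling put 33.2% of calls higher against 44.8% in the main fit. The simulated recovery of 1.5-fold changes was taken over genes of all levels and was not computed for the 3 uncalled enzymes, so it does not say how firmly each was measured. Their SEs were 0.0736 for Taldo1, 0.112 for Pgls and 0.230 for G6pdx, the least precise. A check for a knockout library far from the other knockouts was run on 38 genes and flagged none. Those 38 did not include the genes named after their values had been seen, such as Mb and Myh7. Mb stood at 253 CPM in knockout 3, against 875, 996 and 1002 CPM in knockouts 1, 2 and 4. For Mb, knockout 3 thus lay further from the nearest other knockout than knockouts 1, 2 and 4 lay from each other. The check was not run on Mb, so its lack of flags does not cover this low value.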
